A study of Rattus norvegicus with 3 samples.

Results

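The genes examined here encode the receptors for the inhibitory transmitters GABA and glycine, the proteins that bind these receptors in the cell, 2 transmitter uptake carriers and the cation-chloride cotransporters. They were taken by symbol from the deposited expression table: every GABA-A subunit (Gabra, Gabrb, Gabrg, Gabrd, Gabre, Gabrp, Gabrq and Gabrr genes), Gabbr1 and Gabbr2, Glra1 to Glra4 and Glrb, Slc12a1 to Slc12a9, Gphn, Gabarap, Gabarapl1, Gabarapl2, Slc6a9 and Slc6a11. These names matched 42 of the 26353 entries of the table. RNA came from dissociated commissural neurons of the spinal cord of rat embryos at embryonic day 13, kept for 2 days in culture. Axons of commissural neurons grow across the floor plate to the other side of the cord. The series holds 1 group of 3 libraries with no treated or control samples, called libraries 1, 2 and 3 by the replicate numbers in the labels. The labels give no strain and do not say whether the libraries came from separate cultures, so the spread between them may be technical.

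GABA-A and glycine receptors are chloride channels built from 5 subunits around a pore. An alpha, a beta and usually a gamma subunit make up most GABA-A receptors, while glycine receptors join alpha and beta subunits. Whether their opening excites or inhibits a cell depends on its chloride, which the importer Nkcc1 (Slc12a2) raises and the exporter Kcc2 (Slc12a5) lowers. In embryonic spinal neurons both transmitters are known to depolarise. GABA-B receptors are instead G protein coupled, and need the products of Gabbr1 and Gabbr2 together.

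Levels are given in FPKM as deposited, by definition fragments divided by transcript length in kilobases and by mapped fragments. How the authors computed FPKM is not given, so comparisons of different genes assume this scaling by length. FPKM does not give the depth of a library, so no counting interval was computed. Of the 42 entries, 4 were listed at 0 in each library and 38 were tested against a level of 1 FPKM, with limma's one-sided moderated test and Benjamini-Hochberg adjustment over 17611 entries. Among the members, 23 lay above 1 FPKM and 15 tested members did not, against 63.7% of all entries tested. The level is set on the deposited scale: with each library rescaled to a sum of 1000000, which a few entries above 10000 FPKM dominate, 4 members lay above it. Ratios between genes within a library do not depend on that scale beyond the added 0.1. Their median was 4.21 FPKM over the 38 tested members and 4.81 FPKM over all tested entries. The libraries carried neuronal RNA: all 8 pan-neuronal markers lay above 1 FPKM, as did all 6 progenitor markers. Above it lay 3 of 6 astrocyte, 3 of 6 oligodendrocyte lineage, 3 of 6 microglia and macrophage, and 0 of 5 endothelial markers. So did 1 of 4 matched fibroblast and mural, 1 of 5 sensory ganglion and neural crest, and 1 of 3 erythroid markers. That erythroid marker, Hba1, had 56.9, 30.2 and 12.4 FPKM. The labelled cell type was compared with 6 genes of commissural axons, listed after the data were seen. Robo3, the receptor that such axons carry before crossing, had 118, 74.5 and 119 FPKM, and Dcc, a netrin receptor, 68.0, 48.1 and 71.6 FPKM. Cntn2, Robo1, Robo2 and Boc had means from 15.3 to 41.4 FPKM. Robo3, Dcc, Cntn2, Robo1 and Robo2 were lowest in library 2. The RNA is of whole cultures, so a low level in every cell and a high level in a few cannot be told apart.

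**Figure D1:**
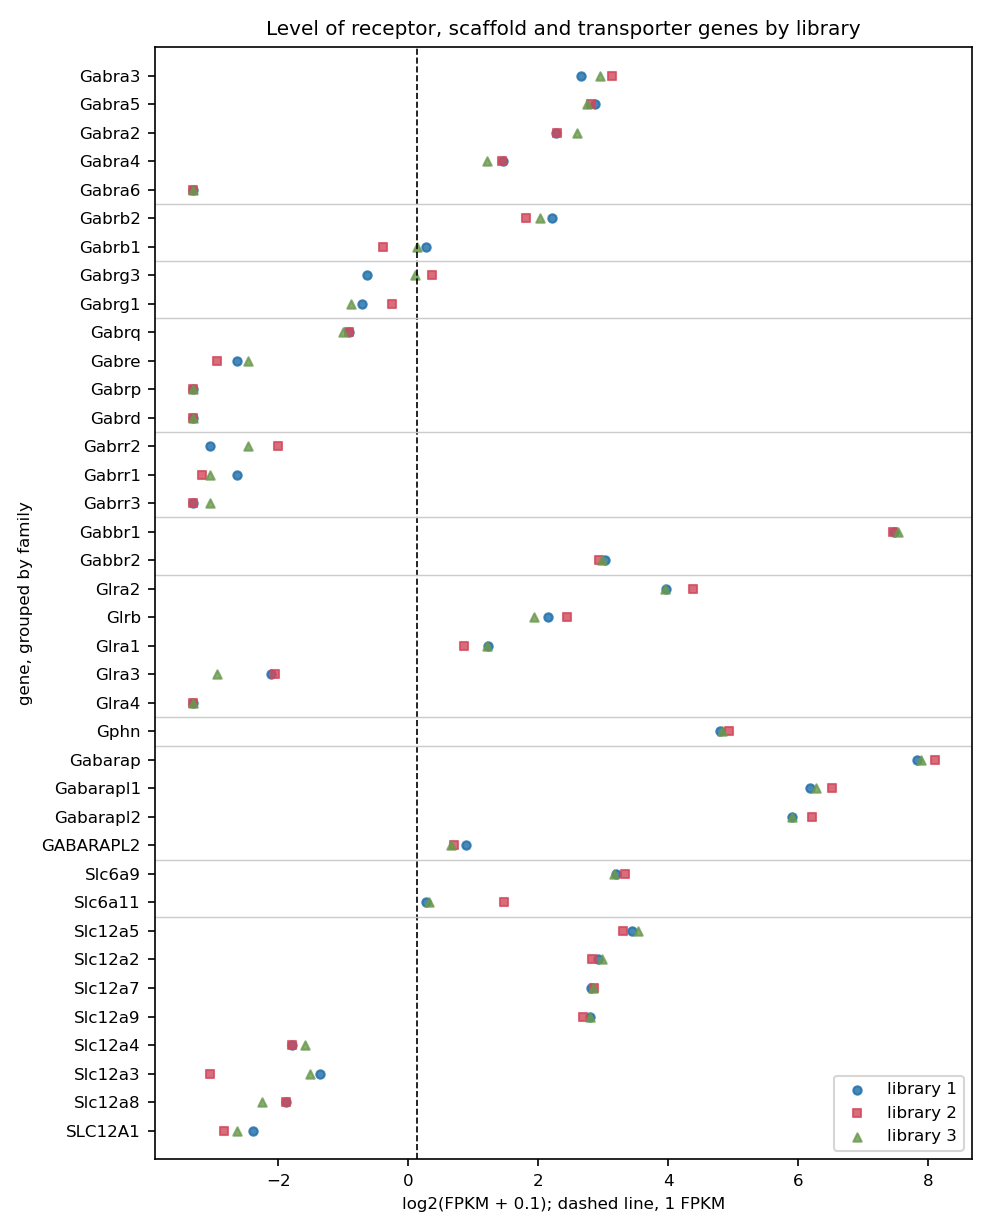
Each row is 1 of 38 genes and each symbol the level in 1 of the 3 libraries, as log2(FPKM + 0.1) on the x axis, with the 1 FPKM level dashed and families parted by grey lines. Gabarap and Gabbr1 lie farthest right, and Gabra6, Gabrp, Gabrd and Glra4 sit at the left edge, where the table lists 0.

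The alpha subunits of the GABA-A receptor, which with beta form the GABA site and with gamma set the response to benzodiazepines, were spread over several genes. Gabra3 had 6.19, 8.70 and 7.59 FPKM in libraries 1, 2 and 3, a mean of 7.49 ± 1.26 FPKM (SD, n = 3). Gabra5 had 7.18, 6.94 and 6.59 FPKM. Gabra2 had 4.73, 4.79 and 5.91 FPKM. The ranges of Gabra3 and Gabra5 overlapped, and Gabra2 lay below Gabra5 in every library. Gabra4 followed at 2.63, 2.62 and 2.22 FPKM. Gabra6, known from cerebellar granule cells, was listed at 0 throughout. Gabra2, Gabra3, Gabra4 and Gabra5 all lay above 1 FPKM by limma's test.

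Beta and gamma subunits complete the receptor, gamma subunits being needed for benzodiazepine binding. Gabrb2 had 4.51, 3.39 and 3.98 FPKM, a mean of 3.96 ± 0.560 FPKM (SD, n = 3), and was lowest in library 2. Gabrb1 had 1.1, 0.660 and 0.990 FPKM, around the 1 FPKM level, and did not pass. Every value of Gabrb2 lay above every value of Gabrb1. Gabrg3 (0.540, 1.19 and 0.970 FPKM) and Gabrg1 (0.510, 0.740 and 0.440 FPKM) did not lie above 1 FPKM either. Gabrg3 and Gabrg1 were highest in library 2. The set holds 3 beta and 3 gamma entries, and not all of them are described here. These values therefore do not give the level of either class as a whole.

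The delta, epsilon, pi, theta and rho genes were low. Gabrd, whose product forms extrasynaptic receptors, and Gabrp were listed at 0 in each library. Gabrq, the theta subunit, had 0.420 ± 0.0173 FPKM and Gabre, the epsilon subunit, 0.0567 ± 0.0252. The rho genes, which form the receptors first described in retina, had 0.0833 FPKM (Gabrr2), 0.0300 (Gabrr1) and 0.00667 (Gabrr3) on average.

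GABA-A genes lie in clusters, and neighbours within them differed in level. In RefSeq's gene order (assembly GRCr8, used here only for order and names) Gabrg3 and Gabra5 stand next to each other, with 0.9 and 6.90 FPKM on average. Gabrb1 and Gabra4 (0.917 and 2.49 FPKM) are parted by Cox7b2 from Gabra2 and Gabrg1 (5.14 and 0.563 FPKM). Each of these runs held members above 1 FPKM and members that did not pass. Gabrr2 and Gabrr1 also stand side by side, both near 0.

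Promoter windows were compared for a feature that the choice of genes did not use, the number of CpG dinucleotides, which mark the promoters of many widely active genes. RefSeq's windows hold 300 bases around a gene's start, most of them before it, and 33 members had exactly 1 such window. The median CpG count was 27 over the 18 with a mean of at least 1 FPKM and 7 over the 15 below it. It was 7 over all 33469 RefSeq windows of that length, of which 94.5% hold at least 1 CpG. Those windows were not split by level, so whether genes outside the set show the same difference was not tested. The 3 windows below were picked after counts and levels had been seen. Gabra3 and Gabrd were taken because they depart from the order of the members' medians, and Gabra5, which follows it, to set beside Gabra3. Other members depart from that order as well. Among them, Glra2 had 9 CpG at 17.2 FPKM, Gabrg3 37 at 0.9 FPKM and Slc12a4 31 at 0.203 FPKM. Gabra3 and Gabra5 had overlapping levels, yet the window of Gabra3 held 0 CpG and that of Gabra5 42, a count reached by 2.40% of all windows. Gabrd, listed at 0, had 40 CpG, reached by 3.24% of all windows. Capitals mark each CpG, and the letters are RefSeq's, written 5′ to 3′ on the strand of the gene.
Gabra3, GRCr8 chrX:155543821-155544120, minus strand: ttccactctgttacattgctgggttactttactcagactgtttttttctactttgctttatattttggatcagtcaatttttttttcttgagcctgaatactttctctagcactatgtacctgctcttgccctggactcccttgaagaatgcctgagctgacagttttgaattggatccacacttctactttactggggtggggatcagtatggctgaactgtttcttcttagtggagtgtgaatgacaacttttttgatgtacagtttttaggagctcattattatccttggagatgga
Gabra5, GRCr8 chr1:117516557-117516856, minus strand: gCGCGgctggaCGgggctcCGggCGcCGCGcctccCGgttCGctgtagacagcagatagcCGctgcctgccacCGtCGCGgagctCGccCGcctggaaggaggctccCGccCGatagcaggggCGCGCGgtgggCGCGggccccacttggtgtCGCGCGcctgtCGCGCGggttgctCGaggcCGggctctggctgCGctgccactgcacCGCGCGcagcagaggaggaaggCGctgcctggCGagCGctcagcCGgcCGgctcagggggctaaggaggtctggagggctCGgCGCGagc
Gabrd, GRCr8 chr5:171252660-171252959, minus strand: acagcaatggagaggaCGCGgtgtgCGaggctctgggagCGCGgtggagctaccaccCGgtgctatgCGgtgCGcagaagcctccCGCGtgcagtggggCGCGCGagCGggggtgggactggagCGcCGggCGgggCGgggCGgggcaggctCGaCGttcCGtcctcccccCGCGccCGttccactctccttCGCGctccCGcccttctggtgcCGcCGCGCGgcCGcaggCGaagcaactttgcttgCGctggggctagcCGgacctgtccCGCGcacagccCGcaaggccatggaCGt
The absence of capitals in the first line says only that no CpG stands in that window. The genes are not independent replicates, and the counts are a description with no test.

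**Figure D2:**
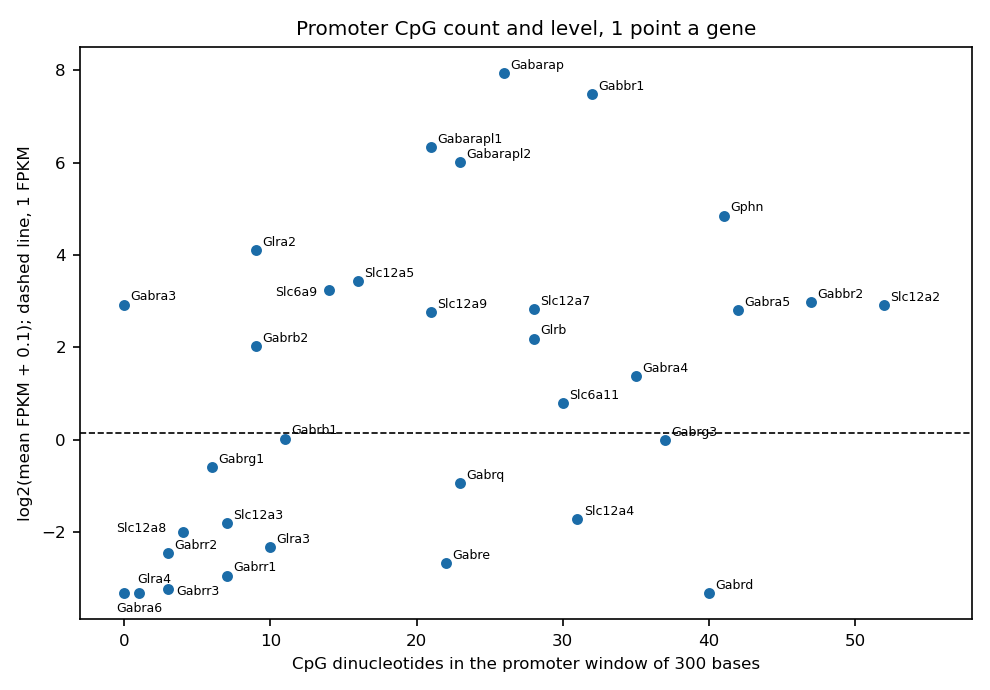
Each point is 1 of the 33 genes with a single promoter window, with the number of CpG in 300 bases on the x axis and log2(mean FPKM + 0.1) on the y axis. Gabra3 stands high with 0 CpG, Gabrd low with 40, and Slc12a2 has the most, 52.

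Of the GABA-B receptor, both genes lay above 1 FPKM, at very different levels. Gabbr1, whose product binds GABA, had 177, 175 and 185 FPKM, above 97.7% of all tested entries. Gabbr2, whose product brings the dimer to the surface and couples it to G proteins, had 8.0, 7.54 and 7.81 FPKM. The values of each gene stayed within a narrow range over the libraries and the ranges lay far apart. Genes of a family were set against 1 reference within each library, as a ratio on the (FPKM + 0.1) scale, which understates the difference of low genes. The test was two-sided and moderated, with limma's variance shrinkage and Benjamini-Hochberg adjustment over all entries. The p-values of the planned form of this test were very small for 3 libraries, and a form with another variance prior was added after they had been seen. Intervals and p-values are from the added form, with the planned p beside the pairs named in the plan. Both forms made the same call for the 11 pairs described here. Gabbr2 was 22.7-fold lower than Gabbr1 (95% interval 20.8 to 24.9, limma, Benjamini-Hochberg adjusted p = 1.42e-05, planned form 1.30e-14, lower in 3 of 3 libraries), as 97.2% of all entries were lower than Gabbr1. The next gene to Gabbr1 in RefSeq's order is Mog, which had 14.5, 16 and 15.4 FPKM, while Mbp, another myelin gene, had 0.743 FPKM and Sox10, which marks the oligodendrocyte lineage, was listed at 0, 0.0300 and 0. Whether the authors' gene models share reads there was not tested.

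Partners of the GABA-B receptor were taken from a list of 11 genes, of which 10 matched a symbol and 8 lay above 1 FPKM, beside 63.7% of all entries tested. The G protein subunits led, with Gnao1 at 120 ± 2.65 FPKM (SD, n = 3), Gnai2 at 93.6 ± 7.57 and Gnai1 at 27.4 ± 1.99. Ajap1, which binds the extracellular part of the receptor, had 26 ± 2.52 FPKM. The 2 lowest genes of the list did not pass. Kcnj3, a subunit of the potassium channel that the receptor opens, had 1.12 ± 0.0850 FPKM (limma, adjusted p = 0.22). The auxiliary subunit gene Kctd16 had 1.24 ± 0.215 (limma, adjusted p = 0.0739). Of the same gene families, Kcnj9 (3.30 ± 0.669 FPKM), Kcnj6 (2.19 ± 0.284) and Kctd8 (8.96 ± 1.65) passed.

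Of the 5 glycine receptor genes, 3 lay above 1 FPKM, Glra3 did not, and Glra4, at 0 in each library, was not tested. Of all entries tested, 63.7% lay above that level. The alpha 2 gene was the highest. Glra2, the alpha subunit of embryonic receptors, had 15.5, 20.7 and 15.3 FPKM, highest in library 2. Glrb, whose product ties the receptor to gephyrin, had 4.35, 5.30 and 3.72 FPKM, also highest in library 2. Glra1, the alpha subunit of the mature cord, had 2.23, 1.70 and 2.21 FPKM and was lowest in library 2. Glra3 had 0.130, 0.140 and 0.0300 FPKM, and Glra4 was listed at 0 in each library. Glra2 was 3.79-fold above Glrb within libraries, with a 95% interval of 3.27 to 4.40 (adjusted p = 3.41e-04 by limma, planned form 4.23e-35, above it in 3 of 3 libraries), a test in which 90.1% of all entries differed from Glrb in either direction. Glra1 was 2.12-fold lower than Glrb (1.30 to 3.44, limma, adjusted p = 0.0189). That call was lost without library 1 (limma, adjusted p = 0.0934) and without library 3 (0.0530) in the added form, while the planned form kept it (limma, adjusted p = 0.00532 and 4.64e-04). Glra2 held 72.0% ± 2.30 (SD, n = 3) of the summed FPKM of the glycine receptor genes, Glrb 18.7% ± 1.1 and Glra1 8.85% ± 2.38.

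Genes for the receptor scaffold and for proteins that carry receptors were among the highest of the set. Gphn encodes gephyrin, the scaffold under glycine receptors and many GABA-A receptors, and had 27.8, 30.4 and 28.3 FPKM. Gabarap, which binds GABA-A gamma subunits and belongs to the ATG8 family of autophagy proteins, had 226, 275 and 236 FPKM. Its relatives Gabarapl1 (72.4, 91.2 and 77.2 FPKM) and Gabarapl2 (59.8, 73.7 and 59.9 FPKM) followed. All of these were highest in library 2, where the median entry of at least 1 FPKM was also higher than in the other libraries, by 0.13 on the log2 scale. A further entry spelt GABARAPL2, with its own identifier (ENSRNOG00000032756), had 1.74, 1.53 and 1.47 FPKM. It may share reads with Gabarapl2 (ENSRNOG00000019425), so both values are uncertain.

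Lists of their partners are read against the 63.7% of all tested entries above 1 FPKM. Of 21 genes for scaffold, adhesion and clustering at inhibitory synapses, 20 matched and 19 lay above 1 FPKM, with a median of 17.2 FPKM. The highest were Dynll1 (379 ± 52.7 FPKM), Pfn1 (291 ± 26), Pfn2 (227 ± 23.3) and Dynll2 (208 ± 18.4), light chains of motors and actin binding proteins with many other roles. Slitrk3, an adhesion protein of inhibitory synapses, had 1.84 ± 0.268 FPKM, while Dlc1 had 1.13 ± 0.123 and did not pass. All 20 genes for trafficking and assembly of GABA-A receptors lay above 1 FPKM, from Ap2m1 (276 ± 28.0), an adaptor of endocytosis, and the kinesin Kif5c (164 ± 0.865) to Plcl1 (9.28 ± 0.356) and Arfgef2 (7.46 ± 0.577). Dbi, which encodes a ligand of the benzodiazepine site, had 103 ± 20.6 FPKM, and Kif5a had 68.7 ± 5.05. Of the other ATG8 genes and their conjugation enzymes, 11 of 11 passed, led by Map1lc3a (141 ± 11.1 FPKM), Map1lc3b (138 ± 15.8), Atg12 (36.3 ± 3.91) and Atg4b (25.5 ± 1.18), with Atg7 (5.28 ± 0.226) and Atg4a (2.53 ± 0.384) lowest.

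Uptake carriers differed in level. Slc6a9, the glycine carrier GlyT1 that glia and progenitors use, had 9.04, 10.0 and 8.91 FPKM and lay above 1 FPKM. Slc6a11, the GABA carrier GAT3 of astrocytes, had 1.1, 2.68 and 1.14 FPKM and did not pass (limma, adjusted p = 0.0632), with library 2 far above the other libraries. Without library 1 it passed (limma, adjusted p = 1.57e-05), as it did without library 3 (1.20e-04), and without library 2 it did not (0.186). It also passed with no filter on low values (limma, adjusted p = 6.21e-04), with a filter at a mean of 0.5 FPKM (0.0487) and against a level of 0.5 FPKM (0.00130). The summed FPKM of the 6 astrocyte markers was 35.8, 35.8 and 37.5 in libraries 1, 2 and 3, with Slc1a2 (26.6 FPKM on average), Gja1 (6.22) and Aldh1l1 (3.20) above 1 FPKM, and S100b (0.270), Aqp4 (0.05) and Gfap (0.0300) not. Gja1 and Aldh1l1 were highest in library 2, and Slc1a2 was lowest there. The 6 progenitor markers summed to 947, 1203 and 978 FPKM, highest in library 2, where Robo3 and Dcc were lowest. Fabp7 (492, 686 and 514 FPKM) and Vim (376, 428 and 389) made up most of that sum. The 8 pan-neuronal markers also summed highest in library 2 (2292, 2477 and 2233 FPKM). Of all entries with a mean of at least 1 FPKM, 62.1% were highest there. The part of astrocytes or progenitors in the Slc6a11 value was not tested. Of 13 genes for synthesis, release, uptake and breakdown of GABA and glycine, 12 lay above 1 FPKM (63.7% of all entries tested did), led by Shmt2 (62.6 ± 7.14 FPKM), which interconverts serine and glycine, the vesicular carrier Slc32a1 (47.7 ± 3.49), the breakdown enzyme Abat (45.2 ± 5.14) and Gad2 (22.5 ± 2.29), which makes GABA. Shmt1 had 1.45 ± 0.285 FPKM, and Slc6a13 was at 0 throughout the table and so was not tested.

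Of the cation-chloride cotransporters, the exporter Slc12a5 lay above the importer Slc12a2. Slc12a5 (Kcc2), which is known mainly from neurons, had 10.8, 9.79 and 11.5 FPKM. Slc12a2 (Nkcc1) had 7.49, 6.97 and 7.75 FPKM. Every value of Slc12a5 lay above every value of Slc12a2. Slc12a2 was 1.44-fold lower than Slc12a5 (95% interval 1.30 to 1.59, limma, adjusted p = 0.00202, planned form 1.28e-04, lower in 3 of 3 libraries), where 90.7% of all entries differed from Slc12a5 in either direction. A difference of at least 1.5-fold was not called (limma, planned form, adjusted p = 0.798). RNA levels do not give the amount or activity of either transporter.

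Other exporters differed in level. Slc12a7 (Kcc4) had 6.92, 7.15 and 7.05 FPKM and was 1.51-fold lower than Slc12a5 (1.28 to 1.77, limma, adjusted p = 0.00507), a call lost without library 1 in the added form (limma, adjusted p = 0.0505) and kept in the planned one (0.0187). Slc12a4 (Kcc1), the exporter of many non-neuronal cells, had 0.190, 0.190 and 0.230 FPKM. Slc12a9, a relative for which no clear ion transport is established, had 6.83, 6.34 and 6.84 FPKM and was 1.59-fold lower than Slc12a5 (1.42 to 1.78, limma, adjusted p = 0.00156). Neither gene passed a test for a difference of at least 1.5-fold (limma, planned form, adjusted p = 0.575 for Slc12a7 and 0.329 for Slc12a9). The kidney genes SLC12A1 (0.0633 FPKM on average) and Slc12a3 (0.290, 0.0200 and 0.250 FPKM), and Slc12a8 (0.150 FPKM), did not lie above 1 FPKM. Slc12a3 was lowest in library 2, where it was near 0. Each of the 7 cotransporter genes compared with Slc12a5 here was lower, and 64.2% of all tested entries had a lower mean than Slc12a5.

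**Figure D3:**
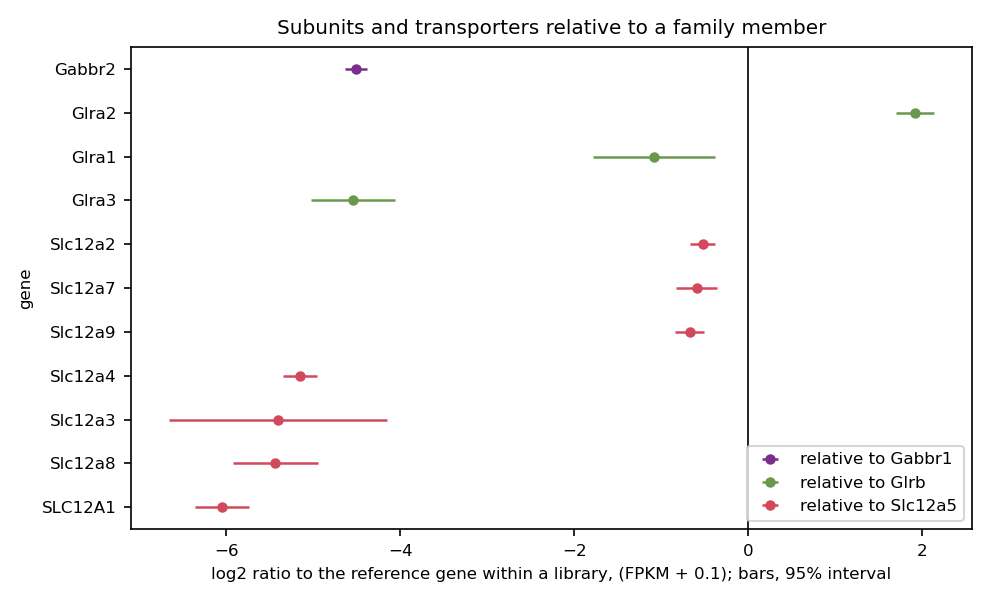
Points give the mean log2 ratio of each gene to a reference of its family within the 3 libraries and bars the 95% interval, in purple for Gabbr1, green for Glrb and red for Slc12a5. Glra2 alone lies right of the line at 0, Slc12a2, Slc12a7 and Slc12a9 lie just left of it, and Gabbr2 lies at -4.51.

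Kinases and other carriers that bear on chloride came from a list of 23 genes, of which 22 matched and 18 lay above 1 FPKM, where 63.7% of all entries tested did. Wnk2, of the kinase family that turns Nkcc1 on and the exporters off, had 36.1 ± 3.93 FPKM (SD, n = 3). Atp1b1, a sodium pump subunit, had 64.1 ± 4.41 FPKM, and Ano1, a calcium-activated chloride channel, 0.0233 ± 0.0153. The sodium pump maintains the gradients that the cotransporters use.

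Most differences between libraries were small for these genes, and they had no common direction. Among the 24 members with a mean of at least 1 FPKM, 11 (45.8%) were highest and 8 (33.3%) lowest in library 2, against 62.1% and 21.5% of 11662 entries at that level. The median log2 ratio of library 2 to the mean of the other libraries was 0.02 for the members and 0.13 for those entries. Slc6a11 (1.19), Glra2 (0.42), Glrb (0.39) and Gabra3 (0.33) had the highest of these ratios, and Glra1 (-0.37), Gabrb2 (-0.32), Slc12a5 (-0.18) and Gabra2 (-0.15) the lowest. These are descriptions of single libraries with no test.

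**Figure D4:**
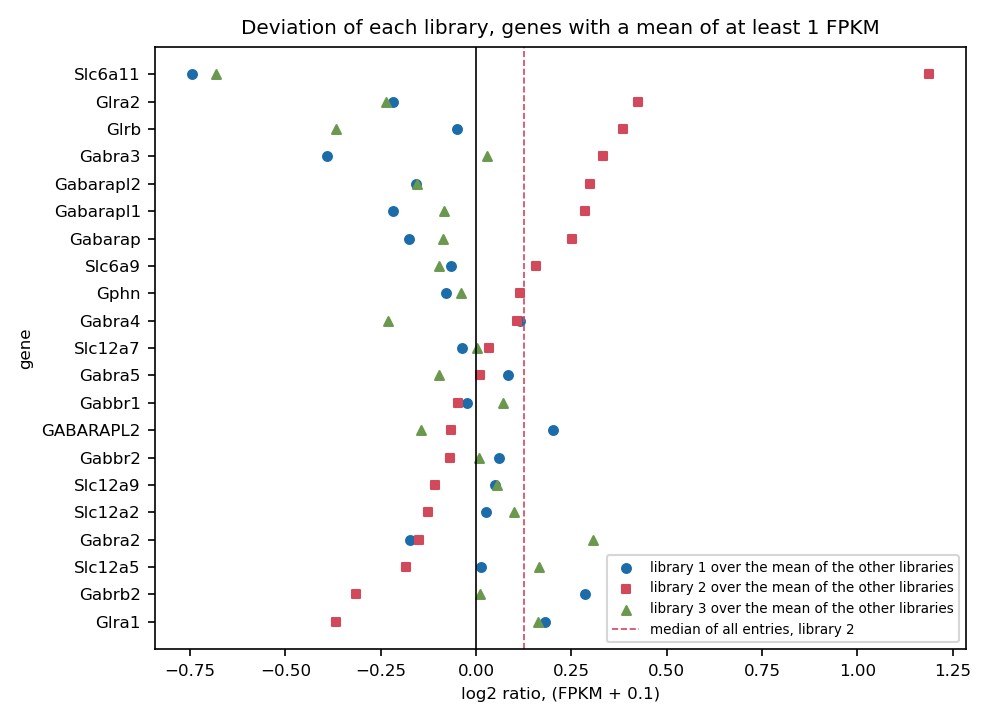
Each row is 1 of 21 members with a mean of at least 1 FPKM, and symbols give the log2 ratio of each library to the mean of the other libraries, on the (FPKM + 0.1) scale. Slc6a11 stands apart at 1.19 in library 2, and most other points lie within 0.4 of 0.

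Of the 24 members with a mean of at least 1 FPKM, 21 are described here, and the order below is among these only. By mean level they ran from Gabarap (246 ± 25.8 FPKM) and Gabbr1 (179 ± 5.13) to Slc6a11 (1.64 ± 0.901) and the entry GABARAPL2 (1.58 ± 0.142). Of the 20 neighbouring pairs in that order, 8 did not overlap in any library and 12 did. Gabarap, Gabbr1, the pair of Gabarapl1 and Gabarapl2, Gphn and Glra2 were each parted from the next lower of the 21 without overlap. Below Glra2, neighbours from Slc12a5 to Slc6a9, from Gabbr2 to Slc12a9, from Gabra2 to Gabrb2 and from Gabra4 to GABARAPL2 overlapped in their ranges. The 14 members under 1 FPKM and above 0 had means from 0.00667 (Gabrr3) to 0.917 FPKM (Gabrb1).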

How the data were processed

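Polyadenylated RNA from 3 libraries was sequenced with paired reads of 50 bp after a stranded preparation, per the labels' protocols. FastQC, Trimmomatic 0.22, STAR and the build rn6 are named in the submitters' processing notes. A single table of FPKM was deposited by the authors. How FPKM was computed, including gene models, strand and multi-mapping reads, is not given in the sources used here, and depth is unknown. Summed FPKM was 25032000, 19898000 and 26237000 in libraries 1, 2 and 3, of which entries above 10000 FPKM held 97.6% to 98.4%.

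Values were analysed as log2(FPKM + 0.1). A one-sided test against 1 FPKM covered the 17611 entries that exceeded 0 somewhere, using R 4.3.3 and limma 3.58.1 (statmod 1.5.0) with trend and robust set to true. Within-library ratios to Glrb, Slc12a5 and Gabbr1 were tested in 2 forms. The planned one used limma throughout, and in the added one limma gave only the variance prior for a t-test coded separately. The planned form, the main one of the design, took its variance prior from all ratios to the same reference and gave very small p-values. After these were seen, a form with a prior from disjoint pairs of entries next to each other in level was added, on the argument that a shared reference adds its own spread to the prior. The checks on simulated data did not show an excess of false calls under the planned form, so they gave that argument no support, and the choice was made after seeing the data. P-values were Benjamini-Hochberg adjusted over all entries at a threshold of 0.05. They measure only the spread between these libraries.

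The members, gene lists and tests were chosen with earlier results of these data known. Members with a mean of at least 1 FPKM are given in every library and others by mean, range or count. Kcnj6, Kcnj9 and Kctd8 were added to set beside Kcnj3 and Kctd16. The rule for each partner list was to name its 4 highest and 2 lowest genes. Some genes of the set and lists that this rule takes are not reported here, and no others were named in their place. They stay in the fits and in counts over the whole set. The genes of commissural axons, Mog with Mbp and Sox10, the CpG counts and the promoters shown were chosen after values were seen. Alternatives were pseudocounts of 0.01 and 1, other filters, levels, priors and scalings, and each library left out. Promoters and gene order are RefSeq's, GRCr8. Figures were drawn with matplotlib 3.10.9.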

Additional observations from a re-analysis of the deposited data

How the results depend on the processing

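The number of members above 1 FPKM was 23, and 17 against a level of 5 FPKM, 4 with each library rescaled to a sum of 1000000, and 23 to 26 under the other alternatives. It was 23 to 24 when 1 library was left out. That rescaling is set by the entries above 10000 FPKM, and it put 16 of the members described below the level, with log2 distances from 1 FPKM of -0.42 (Glra2), -0.99 (Slc12a5), -1.15 (Slc6a9), -1.35 (Gabbr2), -1.40 (Gabra3), -1.41 (Slc12a2), -1.46 (Slc12a7), -1.48 (Gabra5), -1.52 (Slc12a9), -1.79 (Gabra2), -1.93 (Glrb), -2.04 (Gabrb2), -2.42 (Gabra4), -2.56 (Glra1), -2.70 (Slc6a11) and -2.72 (GABARAPL2). With that rescaling Gphn lay above the level (log2 distance 0.27) and did not pass (limma, adjusted p = 0.524). Against 5 FPKM the log2 distances of Glrb (-0.18), Gabrb2 (-0.34), Gabra4 (-0.98), Glra1 (-1.26), GABARAPL2 (-1.61) and Slc6a11 (-1.67) were below 0. Gabra2 lay just above 5 FPKM (0.03) and did not pass there (limma, adjusted p = 0.761). The ratios of Slc12a2 (log2 -0.52), Slc12a7 (-0.59) and Slc12a9 (-0.67) to Slc12a5 were not called at 1.5-fold or more. Slc6a11 passed against 1 FPKM with no filter and with a filter at a mean of 0.5 FPKM. The calls for Glra2 over Glrb and Gabbr2 over Gabbr1 kept their direction and side of the threshold under each alternative run. FPKM does not show how far depth limits the low genes. No paired analysis was possible because all libraries form 1 group.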

Other observations

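In RefSeq's GRCr8 gene models, some members overlap a protein-coding neighbour, which bears on reads counted without strand. Gabarapl2 overlaps Adat1 (1.30 FPKM on average), and Slc6a9 overlaps Ccdc24 (0.203 FPKM). Whether the authors' gene models overlap in the same way, and any part of this in the values, was not tested. Gabbr1 and Mog stand next to each other in that order and do not overlap there.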
